A study of Mus musculus with 8 samples.

Results

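The 37 genes described here act in DNA damage signalling and repair. They were listed by function, from the Fanconi anemia pathway, homologous recombination, mismatch repair, end joining, single-strand break repair and the damage checkpoint. The rule for choosing them used no measured value, but the list was drawn up with earlier results of these data known. All 37 were found among the 23358 genes of a count table from mouse hematopoietic stem cells, and all 37 passed the filter on low counts that left 14086 genes. The cells, taken from bone marrow by a Lin-Sca+Kit+CD48-CD150+ sort, were neither cultured nor treated per the labels. There were 3 wild type libraries (WT), 3 labelled Huwe1 knockout with Mx1-Cre (Mx1-Cre KO) and 2 labelled Huwe1 knockout with Vav-Cre (Vav-Cre KO). Huwe1 encodes a HECT ubiquitin ligase. Vav-Cre, driven by a promoter active across blood cells, deleted the gene constitutively, and Mx1-Cre, driven by an interferon-responsive promoter, deleted it upon induction. The labels name no Cre in the wild type, no inducing agent, and no age or sex. They also do not say whether each library came from its own animal, and each p-value then rests on the spread among libraries, which may be technical.

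A break in both DNA strands can be mended by homologous recombination, which copies an intact sister chromatid and therefore works mainly during and after DNA replication, or by end joining, which rejoins the ends directly. The kinases ATM and ATR sense breaks and stalled forks and signal through CHEK2 and CHEK1, and the Fanconi anemia proteins free replication forks from crosslinks between strands. Inherited loss of several of these factors, most plainly of the Fanconi anemia genes, exhausts blood stem cells.

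Total counts ranged from 28689765 to 33202926 per library. The message of the targeted gene was not lower in the libraries labelled knockout: Huwe1 stood at 434, 398 and 433 CPM (reads scaled to the library's size) in WT 1 to 3, 444, 399 and 412 in Mx1-Cre KO 1 to 3, and 445 and 490 in Vav-Cre KO 1 and 2. Counts are given per gene symbol and the labels do not name the deleted exons, so this total does not check the labels, and every direction below is that of the libraries as labelled. CPM values were scaled with TMM, a correction for library composition, throughout. The stem cell markers Kit, Ly6a, Slamf1, Procr, Mecom, Hlf, Tek and Fgd5 averaged above 1 CPM in every group. Of the 7 T and NK cell markers in the table, Cd3e, Cd3d, Cd3g, Cd8a and Ncr1 averaged under 1 CPM in every group. Lck averaged 21.7 CPM in WT, 23.4 in Mx1-Cre KO and 22.9 in Vav-Cre KO, and Nkg7 averaged 132, 99.8 and 71.4.

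The 2 Vav-Cre KO libraries stood apart from each other in the repair genes, which touches every result on that line. Vav-Cre KO 1 was higher than Vav-Cre KO 2 in 35 of the 37 genes, by a median of 0.41 on the log2 scale, whereas over all tested genes it was higher in 49.4% with a median difference of 0. In the pairs of libraries within the other groups the member median differed by -0.02 to 0.03. Measured from the wild type mean, the median repair gene stood at 0.17 in Vav-Cre KO 1 and -0.30 in Vav-Cre KO 2, against 0.24, 0.35 and 0.32 in Mx1-Cre KO 1 to 3. In 11 genes (29.7%, against 6.70% of all tested genes) Vav-Cre KO 1 lay above every wild type library and Vav-Cre KO 2 below every one. These were Brca1, Brca2, Xrcc2, Rad54l, Mre11a, Exo1, Blm, Chek1, Fancb, Fancl and Msh6. For these 11 genes the average of the line joins opposite departures from wild type. In these bulk libraries, fewer cells of a type and less RNA per cell cannot be told apart.

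**Figure D1:**
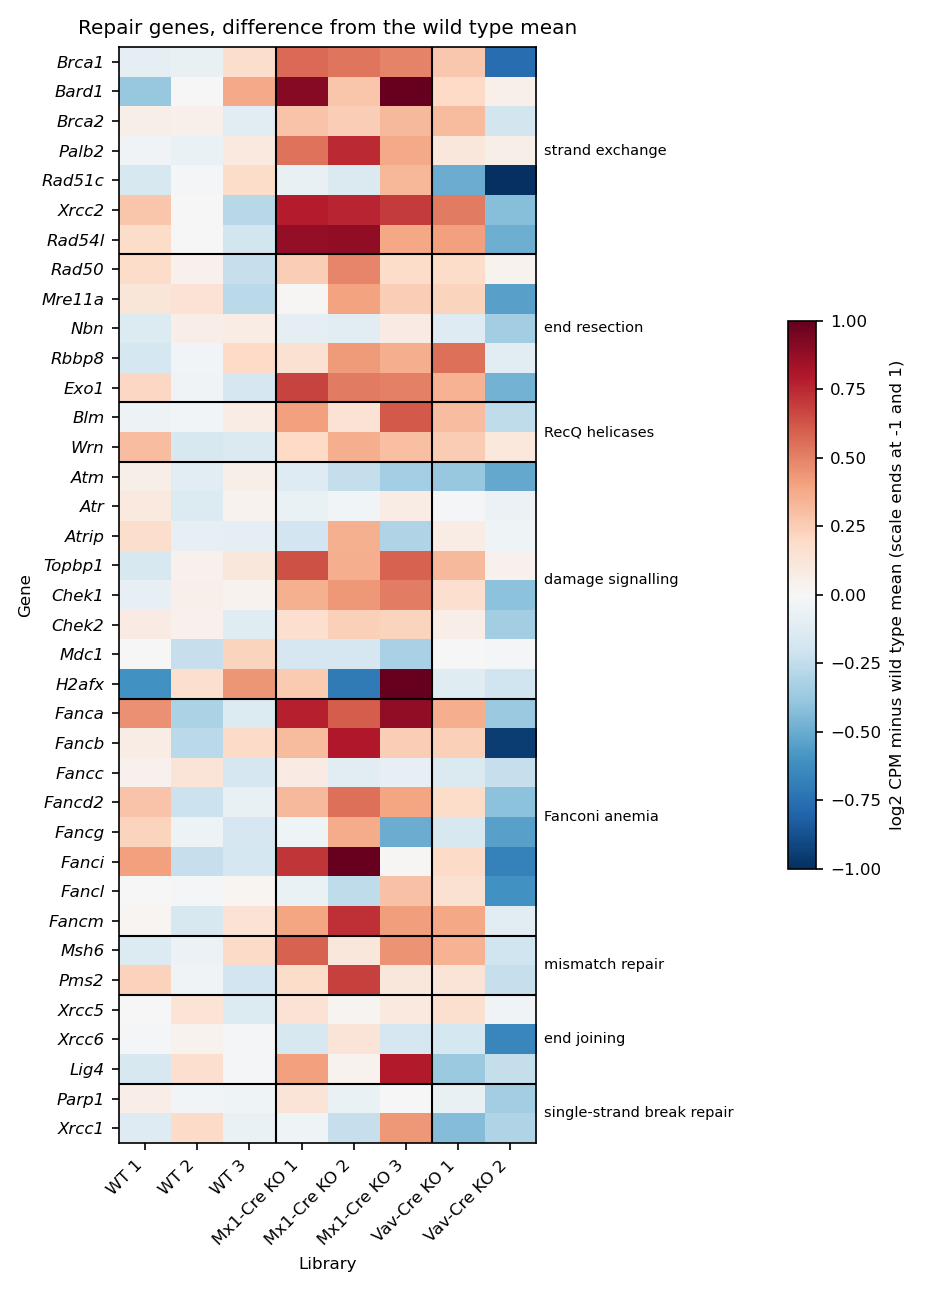
Repair genes (vertical axis, grouped by role) in the 8 libraries (horizontal axis), coloured by the log2 CPM minus the wild type mean, with colours ending at -1 and 1. The Mx1-Cre KO columns are mostly above the wild type mean (27, 27 and 31 of 37 genes), Vav-Cre KO 1 is above it in 26 genes and Vav-Cre KO 2 in 5.

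Promoters of repair genes are known for sites of the E2F factors, which switch on genes at the start of DNA replication. RefSeq promoters (build GRCm38.p6, 250 bases before to 50 after the start) were matched by symbol for 29 of the 37 genes, giving 32 promoters. None was matched for Xrcc2, Rad50, Nbn, Rbbp8, Exo1, Wrn, H2afx and Fancd2. An E2F match, searched as TTTCCCGC, TTTGGCGC, TTTCGCGC or TTTGCCGC on both strands, was present in 10 of the 32 (31.2%), against 744 of 32851 promoters in the whole table (2.26%). The 10 belong to Bard1, Brca2, Chek2, Fancg, Mdc1, Msh6, Rad51c, Topbp1 and Xrcc6, with 2 promoters for Rad51c. With 100 bases before the start in place of 250, the shares were 18.8% and 1.27%. The matches were not concentrated in the genes listed below for work at replication forks. They were in 4 of the 11 promoters of those genes and 6 of the 21 others, and in 1 of 11 and 5 of 21 with the shorter window. The matches are descriptions of letters and not of bound sites. The 4 promoters below belong to the genes with a match upstream of the start that had the smallest p for Mx1-Cre KO against WT. Each gives the 250 bases before the start, 5′ to 3′ on the gene's strand, with the E2F match in capitals. They lie at chr9:103305077-103305326 (plus strand, Topbp1), chr1:71102973-71103222 (minus strand, Bard1), chr5:150522371-150522620 (plus strand, Brca2) and chr17:35841248-35841497 (plus strand, Mdc1).
Topbp1: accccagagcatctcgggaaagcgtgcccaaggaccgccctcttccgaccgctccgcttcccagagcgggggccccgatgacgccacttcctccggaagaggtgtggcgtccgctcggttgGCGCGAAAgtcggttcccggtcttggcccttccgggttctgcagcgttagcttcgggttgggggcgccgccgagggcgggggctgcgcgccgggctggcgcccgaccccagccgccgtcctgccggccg
Bard1: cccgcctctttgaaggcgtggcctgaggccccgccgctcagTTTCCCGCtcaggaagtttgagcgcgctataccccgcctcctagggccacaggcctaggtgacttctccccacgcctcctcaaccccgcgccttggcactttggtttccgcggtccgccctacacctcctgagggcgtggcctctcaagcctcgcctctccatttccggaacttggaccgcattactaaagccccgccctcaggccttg
Brca2: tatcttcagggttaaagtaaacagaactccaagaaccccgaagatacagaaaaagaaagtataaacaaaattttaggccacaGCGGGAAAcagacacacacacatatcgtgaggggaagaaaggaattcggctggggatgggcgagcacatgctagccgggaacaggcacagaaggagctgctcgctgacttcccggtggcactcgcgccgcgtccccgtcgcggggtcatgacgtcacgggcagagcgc
Mdc1: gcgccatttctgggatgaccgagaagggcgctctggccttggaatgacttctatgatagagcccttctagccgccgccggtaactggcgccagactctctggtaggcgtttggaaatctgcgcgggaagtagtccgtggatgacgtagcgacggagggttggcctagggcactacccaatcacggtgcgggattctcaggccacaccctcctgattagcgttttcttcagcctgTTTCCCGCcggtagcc
The match begins 129 bases before the start in Topbp1, 209 in Bard1, 168 in Brca2 and 16 in Mdc1. The fold changes of these genes differed in direction: Topbp1, Bard1 and Brca2 had a log2 fold change above 0 in Mx1-Cre KO and Mdc1 one below 0, as detailed by role below. The CCAAT box of the factor NF-Y, searched on both strands, was present in 19 of 32 promoters (59.4%, against 37.4% of all), the mitotic CHR element TTTGAA in 1 (3.12%, against 17.9%), and the paired p53 half-site in 0 (against 0.0731%). No E2F, CCAAT or CHR string contains another. The promoters of the whole table were not matched to these 32 for base composition, so each share also reflects it. The paired p53 half-site was in only 24 of 32851 promoters, so 0 of 32 tells nothing about the repair genes.

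In wild type stem cells the repair genes spanned a wide range of levels. Per kilobase of exon, Parp1, which encodes the sensor of single-strand breaks, led at 94.4 ± 3.91 CPM per kilobase (SD, n = 3), followed by Xrcc6, which encodes the Ku70 subunit that caps broken ends, at 64.6 ± 1.39. Msh6, Topbp1, Rad50 and Chek2 came next at 52.0, 45.3, 42.3 and 41.5. The lowest were Lig4, the ligase of end joining, at 0.95 ± 0.112, and the recombination gene Rad51c at 1.66 ± 0.206. Of the 36 pairs of neighbours in this order, 7 were separated in every library. Parp1 and Xrcc6 at the top and Bard1, Rad51c and Lig4 at the bottom were among these, and most neighbours between them overlapped.

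The comparison of Mx1-Cre KO with WT reads the knockout label together with Mx1-Cre and its induction. The labels name no Cre in WT and no inducing agent, so Huwe1 loss, Cre and induction cannot be told apart. No repair gene was called by edgeR's quasi-likelihood test at an adjusted p under 0.05, where 2.49% of all tested genes were called. The log2 fold change was nevertheless above 0 in 29 of the 37 genes (51.3% of all genes), with a median of 0.31 beside 0.01 for all genes. At an unadjusted p under 0.05 there were 11 genes higher and 0 lower, against 6.17% and 10.5% of all genes. Every Mx1-Cre KO library lay above every WT library in 15 genes (10.9% of all genes) and below in 1, Atm (14.8%). Other tools drew the line elsewhere. DESeq2 called 5 (Bard1, Palb2, Rad54l, Topbp1 and Xrcc2; 7.4% of all genes), limma-voom with quality weights called these and Brca1, Exo1, Fanca, Fanci and Msh6 (10 in all; 12.9%), and limma-trend on the deposited CPM called 0 (4.85%). At an adjusted p under 0.1, edgeR called Topbp1 and Palb2 (4.98%). It called Rad54l and Xrcc2 at 0.05 when only WT and Mx1-Cre KO were fitted (4.28%) or when Vav-Cre KO 1 (3.81%) or Vav-Cre KO 2 (3.88%) was left out, and Topbp1 alone without Mx1-Cre KO 2 (2.44%).

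In Vav-Cre KO against WT, Huwe1 loss and Cre likewise cannot be told apart. For this line 0 repair genes were called by edgeR (0.511% of all genes), DESeq2 (4.34%), limma-voom (0.49%) or limma-trend (1.17%). The log2 fold change was above 0 in 15 genes (49% of all), with a median of -0.05 beside -0.01 for all genes. At an unadjusted p under 0.05 there were 0 genes higher (5.76% of all genes) and 3 lower (7.64%): Atm, Rad51c and Xrcc6. Both libraries lay above every WT library in 0 genes (15.6% of all) and below in 6 (17.1%): Atm, Rad51c, Xrcc6, Xrcc1, Parp1 and Lig4. Both counts of lower genes were close to the shares over all genes. The median was -0.31 without Vav-Cre KO 1 and 0.16 without Vav-Cre KO 2, so the sign for this line is that of whichever library is kept. With both lines averaged against the same WT libraries, 0 genes were called by edgeR (2.65%) and by DESeq2 (6.77%). There, 25 log2 fold changes were above 0 (50% of all genes) and the median was 0.14. Topbp1 and Palb2 were higher at an unadjusted p under 0.05 (6.11% of all genes) and Atm was lower (10.4%). All 5 knockout libraries lay above every WT library in 0 genes (4.41%) and below in 1, Atm (7.28%).

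**Figure D2:**
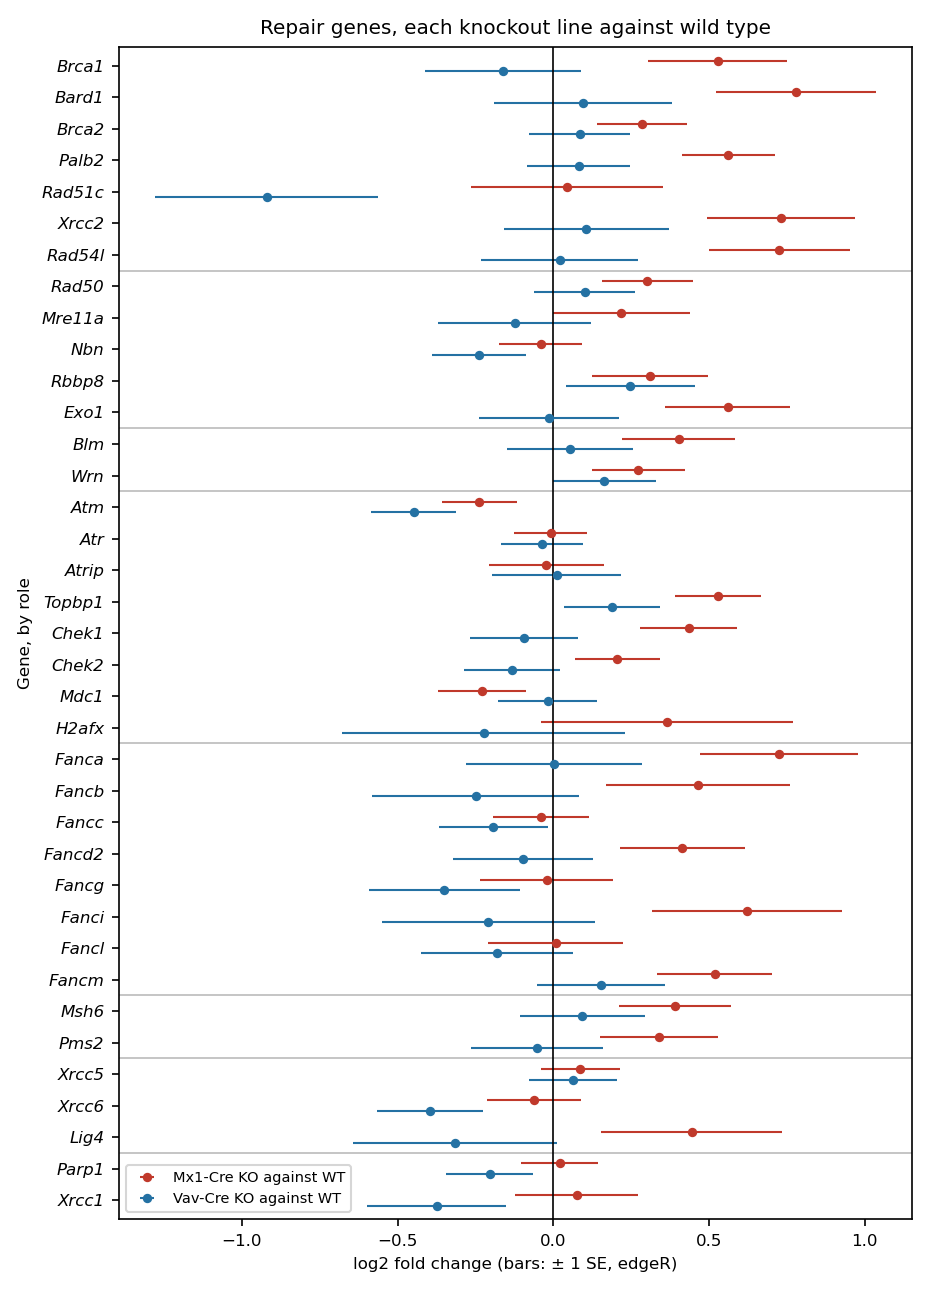
Log2 fold change of each repair gene (vertical axis, grouped by role) in Mx1-Cre KO and Vav-Cre KO against WT (horizontal axis), as points with bars of 1 SE from edgeR. Most Mx1-Cre KO points lie to the right of 0 (29 of 37), the Vav-Cre KO points lie on both sides (15 above 0), and Rad51c and Atm are lowest in Vav-Cre KO.

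The strand exchange genes, whose products act in the pairing of a broken DNA end with its intact copy, showed the highest median in Mx1-Cre KO, 0.56 over 7 genes, all above 0. Their median in Vav-Cre KO was 0.08. Palb2, which bridges BRCA1 and BRCA2, stood at 37.3, 36.5 and 40.9 CPM in WT, 55.6, 64.1 and 49.7 in Mx1-Cre KO, and 41.2 and 39.7 in Vav-Cre KO. The Mx1-Cre KO libraries were all above WT, and the Vav-Cre KO pair lay close to the highest WT library. The log2 fold change in Mx1-Cre KO was 0.56 ± 0.15 (SE; edgeR adjusted p = 0.0808). Rad54l, a DNA-dependent ATPase of homologous recombination, stood at 119, 104 and 92.2 CPM in WT, 192, 193 and 137 in Mx1-Cre KO, and 139 and 74.5 in Vav-Cre KO. The Mx1-Cre KO libraries were again above WT, and the Vav-Cre KO pair lay on either side of it. The Mx1-Cre KO difference was 0.73 ± 0.23 (edgeR adjusted p = 0.131). Xrcc2, which acts in homologous recombination, had 37.4, 30.8 and 25.4 CPM in WT, 52.99, 52.31 and 50.01 in Mx1-Cre KO, and 44.2 and 22.9 in Vav-Cre KO, with the same pattern (Mx1-Cre KO 0.73 ± 0.24, edgeR adjusted p = 0.148).

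BRCA1 and BARD1 form a ubiquitin ligase that licenses resection and strand exchange. Brca1 stood at 56.4, 57.2 and 68.1 CPM in WT, 89.6, 87.5 and 85.0 in Mx1-Cre KO, and 72.7 and 35.6 in Vav-Cre KO. Its Mx1-Cre KO libraries agreed closely and lay above WT (0.53 ± 0.22, edgeR adjusted p = 0.268), while the Vav-Cre KO pair differed by 1.03 on the log2 scale. Bard1 had the largest Mx1-Cre KO value of the 37 genes, 0.78 ± 0.26 (edgeR adjusted p = 0.153), from 14.3, 18.6 and 24.2 CPM in WT and 35.0, 22.5 and 40.4 in Mx1-Cre KO. These groups overlapped, since Mx1-Cre KO 2 lay below WT 3, and Vav-Cre KO was at 21.4 and 19.2, within the WT range. Brca2, a mediator of strand exchange, averaged 91.3 ± 5.78 CPM (SD, n = 3) in WT and 111 ± 2.80 (n = 3) in Mx1-Cre KO without overlap (0.28 ± 0.15, SE). It stood at 114 and 80.1 CPM in Vav-Cre KO 1 and 2, on either side of WT. Rad51c, which acts in the same pathway, lay lower in Vav-Cre KO than in the other groups. It stood at 6.34, 6.99 and 8.09 CPM in WT, 6.73, 6.42 and 8.94 in Mx1-Cre KO, and 5.01 and 2.54 in Vav-Cre KO, with both Vav-Cre KO libraries below all others. The Vav-Cre KO value was -0.92 ± 0.36 (edgeR adjusted p = 0.292), and it was -1.49 without Vav-Cre KO 1 and -0.51 without Vav-Cre KO 2.

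**Figure D3:**
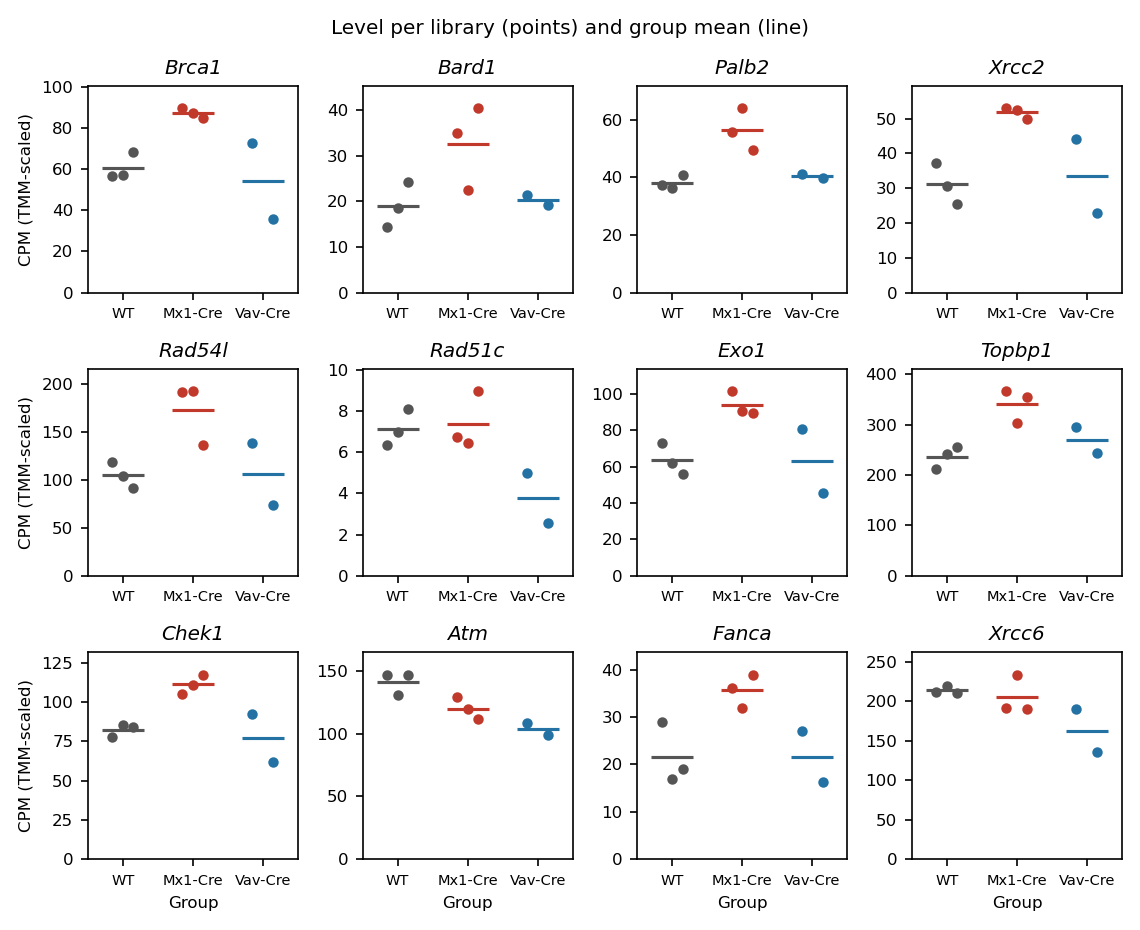
CPM (vertical axes, from 0) of 12 repair genes in the libraries of each group (points) with the group mean (line). In Palb2, Xrcc2, Rad54l, Exo1, Topbp1, Chek1, Brca1 and Fanca the 3 Mx1-Cre KO points lie above the 3 WT points. In Brca1, Xrcc2, Rad54l, Exo1 and Chek1 the 2 Vav-Cre KO points lie on either side of the WT points.

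The end resection genes, which trim broken ends to single strands, had a median of 0.30 in Mx1-Cre KO and -0.01 in Vav-Cre KO. Exo1, the exonuclease of long-range resection, stood at 73.1, 61.8 and 56.2 CPM in WT, 101, 90.6 and 89.7 in Mx1-Cre KO, and 80.6 and 45.6 in Vav-Cre KO. The Mx1-Cre KO libraries were above WT (0.56 ± 0.20, edgeR adjusted p = 0.19) and the Vav-Cre KO pair lay on either side of it. Of the MRE11 complex, which starts resection, Rad50 was at 0.30 ± 0.14 in Mx1-Cre KO, without overlap, Mre11a at 0.22 ± 0.22 and Nbn at -0.04 ± 0.13, the last with a 95% interval of -0.34 to 0.26. No gene of the complex passed the test, and differences among them were not tested. Mre11a stood at 43.6 and 25.7 CPM in Vav-Cre KO, on either side of the WT values of 40.7, 41.5 and 31.1. Nbn in Vav-Cre KO was 69.7 and 60.2 CPM, against 69.4, 80.1 and 80.4 in WT (-0.24 ± 0.15, edgeR adjusted p = 0.539). Rbbp8, which encodes the MRE11 partner CtIP, showed the split of the Vav-Cre KO line, with 84.5 and 53.4 CPM beside 51.1, 56.7 and 66.5 in WT. Its value of 0.25 ± 0.21 became -0.12 without Vav-Cre KO 1 and 0.54 without Vav-Cre KO 2. The RecQ helicases Blm and Wrn, which unwind recombination intermediates, were at 0.40 ± 0.18 and 0.27 ± 0.15 in Mx1-Cre KO, with Blm free of overlap, and at 0.05 ± 0.20 and 0.16 ± 0.17 in Vav-Cre KO. The Blm average there joins 59.1 and 40.1 CPM, against 46.2, 46.8 and 50.3 in WT.

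Among the damage signalling genes, Topbp1, which activates ATR, had the smallest p of all 37 genes in Mx1-Cre KO. It stood at 211, 243 and 256 CPM in WT, 366, 303 and 355 in Mx1-Cre KO, and 296 and 243 in Vav-Cre KO. All Mx1-Cre KO libraries were above WT by a fold of 1.44 (0.53 ± 0.14 on the log2 scale, edgeR adjusted p = 0.0784), and Vav-Cre KO overlapped WT (0.19 ± 0.15, edgeR adjusted p = 0.667). Chek1, the effector kinase of ATR, stood at 77.8, 85.2 and 84.1 CPM in WT, 105, 111 and 118 in Mx1-Cre KO, and 92.4 and 62.0 in Vav-Cre KO. The Mx1-Cre KO libraries lay above WT (0.43 ± 0.15, edgeR adjusted p = 0.186). The kinase and its partner were near 0 in the same comparison, with Atr at -0.01 (95% interval -0.27 to 0.25) and Atrip at -0.02 (-0.43 to 0.39). Their differences from Topbp1 and Chek1 were not tested.

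Atm, the kinase activated by double-strand breaks, had values below 0 in both lines. It stood at 147, 131 and 147 CPM in WT, 129, 120 and 112 in Mx1-Cre KO, and 109 and 99.0 in Vav-Cre KO, so that all 5 knockout-labelled libraries were below all 3 WT libraries. The log2 fold change was -0.24 ± 0.12 in Mx1-Cre KO (edgeR adjusted p = 0.363), -0.45 ± 0.14 in Vav-Cre KO (edgeR adjusted p = 0.19) and -0.34 ± 0.11 with both lines averaged (edgeR adjusted p = 0.14). Without Vav-Cre KO 1 or 2 the Vav-Cre KO value was -0.52 and -0.38. The Vav-Cre KO minus Mx1-Cre KO difference was -0.21, with a 95% interval of -0.51 to 0.09. Chek2, the effector kinase of ATM, was at 0.21 ± 0.14 in Mx1-Cre KO without overlap and at -0.13 ± 0.15 in Vav-Cre KO. Mdc1, the scaffold at damaged chromatin, was at -0.23 ± 0.14 and -0.02 ± 0.16. H2afx, the histone variant phosphorylated at breaks, varied most within a group: its 3 Mx1-Cre KO libraries held 33.6, 17.1 and 62.5 CPM, and neither direction can be read from them (95% interval -0.53 to 1.26).

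The Fanconi anemia genes had a median of 0.44 in Mx1-Cre KO, with 6 of 8 above 0, and -0.19 in Vav-Cre KO. Fanca, a core complex subunit, stood at 28.9, 16.8 and 19.1 CPM in WT, 36.16, 31.96 and 39.01 in Mx1-Cre KO, and 27.1 and 16.2 in Vav-Cre KO. The Mx1-Cre KO libraries lay above WT (0.72 ± 0.25, edgeR adjusted p = 0.179) and Vav-Cre KO overlapped WT. Fancm, the translocase that recruits the core complex, stood at 29.8, 26.4 and 32.6 CPM in WT, 38.8, 49.0 and 39.5 in Mx1-Cre KO, and 38.7 and 27.2 in Vav-Cre KO. Here too Mx1-Cre KO did not overlap WT (0.52 ± 0.19, edgeR adjusted p = 0.187). Fancd2 and Fanci, whose products are the pathway's ubiquitinated clamp, were at 0.41 ± 0.20 and 0.62 ± 0.30 in Mx1-Cre KO, the first without overlap. Fancb, another core subunit, was at 0.46 ± 0.30 without overlap, and its Vav-Cre KO libraries held 23.9 and 10.4 CPM against 21.3, 16.8 and 23.1 in WT. The remaining 3 were near 0: Fancg at -0.02 ± 0.21, Fancc at -0.04 ± 0.15 and Fancl, the ubiquitin ligase of the core complex, at 0.01 ± 0.22. Fancl held 39.1 and 23.2 CPM in Vav-Cre KO against 35.3, 34.8 and 35.7 in WT. In Vav-Cre KO, Fancg had 77.0 and 58.9 CPM against 100, 83.0 and 76.5 in WT (-0.35 ± 0.24, edgeR adjusted p = 0.586), and Fancc had 29.5 and 27.8 against 33.5, 35.5 and 29.1 (-0.19 ± 0.17, edgeR adjusted p = 0.704).

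The mismatch repair genes Msh6, of the mismatch sensor, and Pms2, of the nicking enzyme, were at 0.39 ± 0.18 and 0.34 ± 0.19 in Mx1-Cre KO, both with overlap, and at 0.09 ± 0.20 and -0.05 ± 0.21 in Vav-Cre KO. Msh6 held 280 and 191 CPM in Vav-Cre KO 1 and 2, against 200, 212 and 252 in WT. The end joining and single-strand break repair genes, which serve cells outside replication as well, had medians of 0.09 and 0.05 in Mx1-Cre KO and -0.32 and -0.29 in Vav-Cre KO. Xrcc6 stood at 212, 220 and 211 CPM in WT, 192, 234 and 191 in Mx1-Cre KO, and 190 and 136 in Vav-Cre KO. Mx1-Cre KO lay on both sides of WT and both Vav-Cre KO libraries lay below it (-0.40 ± 0.17, edgeR adjusted p = 0.347). That value was -0.66 without Vav-Cre KO 1 and -0.17 without Vav-Cre KO 2. Xrcc5, which encodes Ku80, the partner of Ku70, was at 0.06 ± 0.14 in Vav-Cre KO and overlapped WT. Lig4 was at 0.44 ± 0.29 in Mx1-Cre KO with overlap and at -0.32 ± 0.33 in Vav-Cre KO. Parp1 stood at 383, 359 and 355 CPM in WT, 399, 349 and 366 in Mx1-Cre KO, and 348 and 287 in Vav-Cre KO. Both Vav-Cre KO libraries were below WT (-0.20 ± 0.14, edgeR adjusted p = 0.578), by -0.35 without Vav-Cre KO 1 and -0.07 without Vav-Cre KO 2. Xrcc1, the scaffold of single-strand break repair, had 30.9, 38.6 and 32.2 CPM in WT, 32.8, 28.8 and 45.6 in Mx1-Cre KO, and 25.01 and 27.30 in Vav-Cre KO (-0.37 ± 0.22, edgeR adjusted p = 0.51). Here both Vav-Cre KO libraries were below all the others.

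Vav-Cre KO minus Mx1-Cre KO asks whether the lines differ. The Cre, the mode of deletion (constitutive or induced) and the induction itself differ together, and the labels give no age. These cannot be told apart here. edgeR called 0 of the 37 genes (0.17% of all genes) and DESeq2 0 (3.39%). The difference was below 0 in 35 genes (50.6% of all genes were above 0), with a median of -0.34 beside 0.01 for all. At an unadjusted p under 0.05, 12 genes were lower in Vav-Cre KO (5.96% of all genes) and 0 higher (7.31%). Both Vav-Cre KO libraries lay below every Mx1-Cre KO library in 21 genes (12% of all genes) and above in 1, Mdc1 (13.8%). The genes with the smallest p were Chek1 (-0.53 ± 0.18, edgeR adjusted p = 0.245), Palb2 (-0.48 ± 0.17, 0.266), Rad54l (-0.71 ± 0.26, 0.284), Brca1 (-0.69 ± 0.25, 0.285) and Rad51c (-0.97 ± 0.36, 0.288). Most of this rested on 1 library. Without Vav-Cre KO 2 the median was -0.15 and 0 genes were lower at an unadjusted p under 0.05 (3.73% of all genes), whereas without Vav-Cre KO 1 the median was -0.60, 21 were lower (8.98%) and edgeR called Brca1, Chek1, Exo1, Rad54l and Xrcc2 (2.82%). In both of these fits the Vav-Cre KO group was 1 library, assumed to vary like the others. Of the 5 genes with the smallest p, Palb2 moved least, at -0.45 without Vav-Cre KO 2 and -0.51 without Vav-Cre KO 1, and Brca1 went from -0.27 to -1.29.

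The 14 genes listed for recombination and checkpoint work at replication forks (Brca1, Brca2, Bard1, Rad54l, Chek1, Fanca, Fancd2, Fanci, Exo1, Blm, Topbp1, Msh6, H2afx and Rbbp8) had a median of 0.48 in Mx1-Cre KO, with 14 of 14 above 0 and 8 higher at an unadjusted p under 0.05. The other 23 had a median of 0.08, with 15 above 0 and 3 higher. Over all tested genes, 51.3% were above 0 and 6.17% were higher in this way, so the 23 lay nearer to the background than the 14. The 14 were chosen with earlier results of these data known, so this contrast is a description and not a test. Genes of related work are among the 23, some near 0 (Atr, Fancl) and some higher (Palb2, Xrcc2). By library, the medians of the 14 were 0.58, 0.43 and 0.50 in Mx1-Cre KO 1 to 3, 0.31 in Vav-Cre KO 1 and -0.31 in Vav-Cre KO 2. Those of the other 23 were 0.09, 0.13 and 0.19 in Mx1-Cre KO 1 to 3, 0.06 in Vav-Cre KO 1 and -0.30 in Vav-Cre KO 2. In Vav-Cre KO 2, 10 of the 14 and 15 of the 23 lay below the lowest WT library, so the lower values there were not particular to the 14. In genes of the cell cycle that are not among the 37, the list medians were likewise above 0 in the 3 Mx1-Cre KO libraries and Vav-Cre KO 1 and below 0 in Vav-Cre KO 2, with another order among the first 4. The 29 G1/S and replication genes had medians of 0.47, 0.36 and 0.50 in Mx1-Cre KO 1 to 3, 0.14 in Vav-Cre KO 1 and -0.51 in Vav-Cre KO 2, and the 22 G2/M and mitosis genes 0.54, 0.30, 0.69, 0.34 and -0.73. In Mx1-Cre KO all 29 and all 22 had a log2 fold change above 0, with 17 and 9 higher at an unadjusted p under 0.05 and 0 called. Mki67, the proliferation marker, stood at 599, 576 and 646 CPM in WT, 1058, 796 and 1100 in Mx1-Cre KO, and 962 and 465 in Vav-Cre KO. Its lowest Mx1-Cre KO library was above WT, and the Vav-Cre KO pair lay on either side of WT. The part of cycling cells in the levels of the repair genes was not tested.

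**Figure D4:**
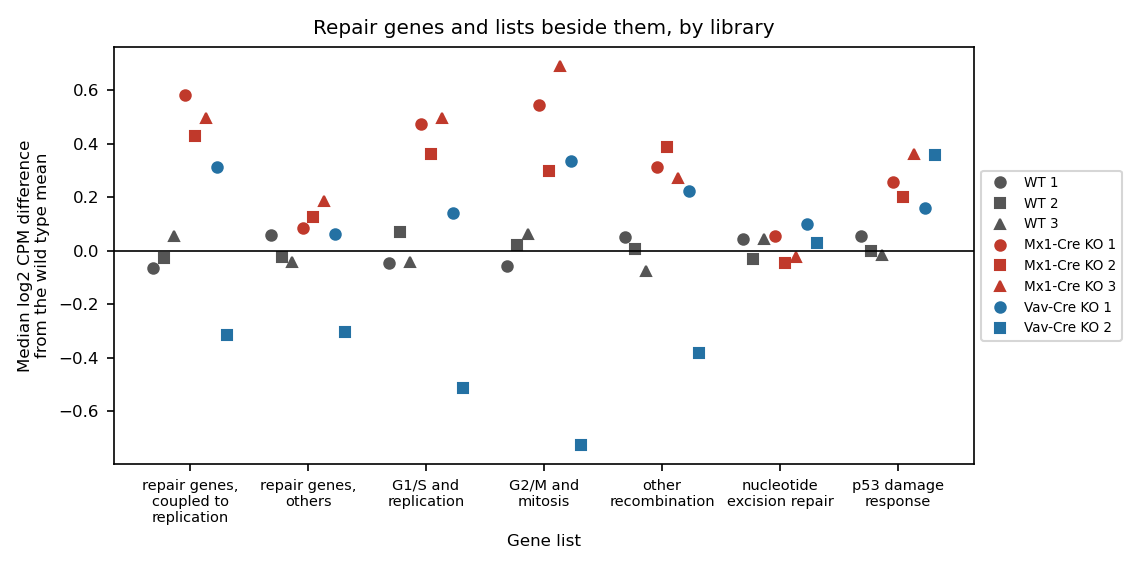
Median difference in log2 CPM from the wild type mean (vertical axis) of 7 gene lists (horizontal axis) in each of the 8 libraries (points, coloured by group). The replication-coupled and the other repair genes, the G1/S, the G2/M and the other recombination lists place the Mx1-Cre KO libraries above 0 and Vav-Cre KO 2 below it. Nucleotide excision repair stays between -0.05 and 0.10, and the p53 damage response is above 0 in all 5 knockout-labelled libraries.

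Of 93 further repair and checkpoint genes, 92 were tested and edgeR called 0 in each of the 4 comparisons. In Mx1-Cre KO, 63 were above 0 (51.3% of all genes), with a median of 0.17. At an unadjusted p under 0.05, 16 were higher (6.17% of all genes) and 2 lower (10.5%). In Vav-Cre KO, 35 were above 0 (49% of all genes), with a median of -0.04. By the same threshold 2 were higher (5.76%) and 2 lower (7.64%). Other recombination genes (20, median 0.31 in Mx1-Cre KO, 5 higher at an unadjusted p under 0.05) and other checkpoint genes (15, median 0.22, 6 higher) had most of the higher values, and nucleotide excision repair, which removes bulky lesions, had 13 genes with a median of -0.04. The smallest p in Mx1-Cre KO belonged to Polq, the polymerase of end joining at microhomologies, which is listed here with the other recombination genes. Polq stood at 31.1 ± 2.86 CPM in WT (SD, n = 3), 54.7 ± 3.97 in Mx1-Cre KO (n = 3) and 28.8 ± 11.9 in Vav-Cre KO (n = 2). Its log2 fold change in Mx1-Cre KO was 0.82 ± 0.21 (edgeR adjusted p = 0.0783). Next came Timeless and Clspn, mediators of the fork checkpoint, at 0.48 ± 0.13 and 0.56 ± 0.18, the flap nuclease Fen1 at 0.58 ± 0.18, and the glycosylases Neil3 at 0.60 ± 0.17 and Neil2 at -3.77 ± 1.07, the last from under 1 CPM in WT. In Vav-Cre KO the smallest p belonged to Rad51b, whose product forms a complex with that of Rad51c, at 19.8 ± 1.79 CPM in WT, 18.8 ± 4.51 in Mx1-Cre KO and 10.1 ± 3.29 (n = 2) in Vav-Cre KO. The log2 fold change was -0.97 ± 0.29 (edgeR adjusted p = 0.177). The means of Rad51b and Rad51c were thus both lowest in Vav-Cre KO. Polm (0.66 ± 0.25) and Uimc1 (0.32 ± 0.14) were the 2 genes higher in Vav-Cre KO at an unadjusted p under 0.05. Ercc8 (-0.44 ± 0.21) and Ube2t (-0.43 ± 0.20) came next but did not reach that threshold (edgeR unadjusted p = 0.0563 and 0.0598).

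Genes that p53 switches on after DNA damage were a separate readout. Of 23 listed, 3 are also among the further repair genes. In Mx1-Cre KO edgeR called 3, Zmat3, Cdkn1a and Eda2r (2.49% of all genes were called), and in Vav-Cre KO 1, Zmat3 (0.511%). The list medians were 0.35 and 0.24. Not all of the 23 were higher: 17, 15 and 17 lay above the wild type mean in Mx1-Cre KO 1 to 3, and 15 and 17 in Vav-Cre KO 1 and 2. In the same order, 3, 5, 4, 3 and 3 lay below the lowest WT library. Zmat3, an RNA-binding p53 target, stood at 10.9, 8.63 and 12.4 CPM in WT, 52.99, 36.10 and 49.33 in Mx1-Cre KO, and 34.6 and 64.9 in Vav-Cre KO. All 5 knockout-labelled libraries lay above WT (Mx1-Cre KO 2.12 ± 0.26, edgeR adjusted p = 0.00506; Vav-Cre KO 2.23 ± 0.28, edgeR adjusted p = 0.0154). Cdkn1a, which encodes the cell cycle inhibitor p21, stood at 3.17, 1.84 and 3.39 CPM in WT, 9.57, 6.35 and 21.5 in Mx1-Cre KO, and 6.55 and 7.50 in Vav-Cre KO. It rose in Mx1-Cre KO (2.15 ± 0.45, edgeR adjusted p = 0.0352) and did not pass in Vav-Cre KO (1.33 ± 0.48, edgeR adjusted p = 0.256). The order of the Vav-Cre KO pair was the reverse of that in the repair genes, with list medians of 0.16 in Vav-Cre KO 1 and 0.36 in Vav-Cre KO 2.

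The summed levels of markers of other cells lay apart between groups in some lists and overlapped in others. Of the 8 mast cell and basophil markers, 6, 6 and 5 averaged under 1 CPM in WT, Mx1-Cre KO and Vav-Cre KO. Of the 7 B cell markers, 3, 2 and 6 did. Of all tested genes, edgeR called 2.49% in Mx1-Cre KO and 0.511% in Vav-Cre KO, in either direction. The summed level of 10 myeloid progenitor markers was 473 to 749 CPM in WT, 174 to 228 in Mx1-Cre KO (2 called lower) and 163 to 401 in Vav-Cre KO (1 called lower), and that of the 9 mature neutrophil and monocyte markers in the table was 321 to 1155, 99.4 to 571 and 6.90 to 281. The 9 erythroid markers summed to 109 to 209, 152 to 295 and 20.63 to 52.96 CPM, with Hba-a1 and Hbb-b1 at 0 in all libraries, and 2 of them were called lower in Vav-Cre KO. The 8 megakaryocyte and platelet markers summed to 1267 to 1680, 759 to 989 and 571 to 1101 CPM, the 10 stroma and endothelium markers to 172 to 197, 81.6 to 115 and 128 to 132, and the 8 mast cell and basophil markers to 10.4 to 14.9, 24.8 to 41.2 and 16.5 to 241. The 7 B cell markers summed to 64.9 to 85.3, 54.5 to 69.1 and 35.8 to 72.9 CPM, and the 7 T and NK cell markers in the table to 124 to 186, 109 to 140 and 77.4 to 111. The 8 stem cell markers named above summed to 2577 to 3178 CPM in WT, 1864 to 3552 in Mx1-Cre KO and 3206 to 3222 in Vav-Cre KO. In Mx1-Cre KO 1 to 3, the libraries with the higher repair gene medians, 7, 6 and 8 of the 8 lay below the lowest WT library, with median differences from the wild type mean of -0.71, -0.33 and -0.59 on the log2 scale, and edgeR called 2 lower (Fgd5 and Procr). In Vav-Cre KO 1 and 2 the medians were 0.07 and 0.19, and edgeR called Fgd5 lower. The part of these cell types in the repair gene values was not tested.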

How the data were processed

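Bulk RNA-seq of 8 libraries was used. Per the labels' protocols, the kits were SMARTer Ultra Low Input for cDNA and NEBNext for libraries, and the protocol kept no strand, so reads of a gene and of an overlapping or antisense gene cannot be told apart. The tools named, per the submitters' processing notes, were edgeR, HTSeq, TopHat and SAMtools, with build mm9, and versions, annotation and strand setting were not given. The authors deposited raw counts per gene symbol and, in a second table, CPM, which equals the count over the library total for 12457 genes. Groups come from the titles.

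The quasi-likelihood test of edgeR 4.0.16 (R 4.3.3; filterByExpr, TMM) was run on the counts in 1 fit of all 8 libraries, with no term but group. Adjusted p-values are Benjamini-Hochberg over 14086 genes, called under 0.05, and each SE was derived from the fold change and its F. Intervals of 95% use the t quantile. Levels are TMM-scaled CPM, and a prior count of 2 was added for log2 CPM. The fits were tested on simulated data. Libraries of a group differed beyond sampling noise, so none was taken for a repeat sequencing of another. This does not show that they came from separate animals. Alternatives were DESeq2 1.42.0, limma 3.58.1 (voom with quality weights, and trend on log2 of deposited CPM plus 1), other scalings, no filter or 1 CPM in 2 libraries, each library left out, the replicate number as a block, only the compared groups in the fit, a call at 0.1, and a shorter promoter window.

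The 37 genes, the other lists and the tests were chosen with earlier results of these data known. Values per library are given for genes among the 10 smallest p in Mx1-Cre KO or Vav-Cre KO against WT or the 5 smallest between the lines, and for other repair genes the 6 smallest in each line are named, except where a gene is not reported here. Mki67, Zmat3, Cdkn1a and Eda2r are outside this rule and were picked with their values in view. Exon lengths come from GENCODE M21 by symbol and promoters from RefSeq on GRCm38.p6, and no coordinate of the counting was used. Ly6g and Trbc2 were not matched in the count table, and Rad9 was matched as Rad9a.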

Additional observations from a re-analysis of the deposited data

How the results depend on the processing

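Of 25 differences tested for the repair genes named above, 13 kept their direction and their side of the adjusted p of 0.05 under every alternative run, 11 passed it under at least 1, and Rbbp8 in Vav-Cre KO against WT changed sign, to -0.12 without Vav-Cre KO 1, where the range with a library left out was -0.12 to 0.54. Repair genes called in Mx1-Cre KO against WT went from 0 to 2 at an adjusted p of 0.1, 5 with DESeq2, 10 with limma-voom, 2 with only the groups compared and 0 to 2 with a library left out. Between the lines, where 0 were called, they ranged from 0 to 5 with a library left out. The median over the repair genes ranged from -0.31 to 0.16 in Vav-Cre KO against WT and from -0.60 to -0.15 between the lines with a library left out, the extremes being those without Vav-Cre KO 1 and without Vav-Cre KO 2. The cause was not tested.

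Counts over all genes moved more. For Mx1-Cre KO against WT, 351 were called, and 701 at an adjusted p of 0.1, 1042 with DESeq2, 604 with limma-trend, 1815 with limma-voom, 575 with only the groups compared and 58 to 565 with a library left out. For Vav-Cre KO against WT, 72 were called, and 236 at 0.1, 599 with DESeq2, 146 with limma-trend, 174 with no filter, 111 with only the groups compared and 5 to 196 with a library left out. For both lines averaged, 373 were called, and 714 at 0.1, 953 with DESeq2, 992 with limma-voom and 22 to 502 with a library left out. Between the lines, 24 were called, and 76 at 0.1, 468 with DESeq2, 10 with limma-voom, 81 with no filter, 3 with only the groups compared and 3 to 412 with a library left out. The share of promoters with the CHR element was 0% in the shorter window.

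With the replicate number as a block, 218 genes were called for both lines averaged, 20 for Vav-Cre KO against WT and 9 between the lines, and 0 repair genes in any comparison. Whether the numbers pair the libraries is not given by the labels. Deviations of same-numbered libraries correlated at -0.07 to 0.13, and not every library correlated best with its own number. With only 2 libraries, the Vav-Cre KO deviations mirror each other, and weak correlations cannot exclude a shared batch.

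The 2 Vav-Cre KO libraries give that line 1 degree of freedom of its own. The biological coefficient of variation was 21.1% in WT, 30.5% in Mx1-Cre KO and 36.1% in Vav-Cre KO libraries, and the shared fit assumes a common spread.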
